A study of Mus musculus with 48 samples.

Results

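*Apoe*, the gene of apolipoprotein E, lies on mouse chromosome 7 among *Clptm1*, *Apoc1*, *Tomm40* and *Bcam*, and these 5 genes were followed by symbol through both expression tables of the study. The tables held 27082 genes in 16 C57BL/6J (B6) mice and 18939 genes in 32 *APOE*-TR mice, and both listed all 5. *APOE*-TR mice carry human *APOE3* (E3) or *APOE4* (E4) in place of mouse *Apoe* by targeted replacement, so in them the *Apoe* row holds only those reads that were assigned to the mouse gene. RNA of the cerebral cortex had been sequenced from 48 mice, 4 in each of 12 groups given by genotype (B6, E3 or E4), sex and air. The mice breathed nano-sized particulate matter (nPM) or filtered air (control) for 5 h a day on 3 days a week. B6 mice were exposed for 8 weeks and were 4 months old, and *APOE*-TR mice were exposed for 15 weeks and were 6 months old. The paper states that the exposures of B6 and *APOE*-TR mice used different batches of nPM. Genotype, age, length of exposure, nPM batch and table thus change together between B6 and *APOE*-TR mice. These levels are therefore given side by side with no test between the tables.

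Apolipoprotein E carries cholesterol and other lipids between cells on lipoprotein particles, which enter cells through receptors of the LDL receptor family. In brain it is made mainly by astrocytes, and microglia make more of it when they are activated. The alleles *APOE3* and *APOE4* differ in their risk for Alzheimer disease, and variants of *TOMM40* and *APOC1* in human populations are inherited together with them. *Apoc1* encodes a small apolipoprotein that slows the uptake of particles carrying apolipoprotein E. *Tomm40* encodes the channel through which proteins made in the cytosol enter mitochondria. *Clptm1* encodes a transmembrane protein that retains GABA-A receptors inside the cell, and *Bcam* encodes a cell surface receptor for laminin.

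On build GRCm38 (mm10), the build of the tables, the GENCODE M21 annotation places all 5 genes on the minus strand of chromosome 7. *Apoe* (ENSMUSG00000002985) spans chr7:19696109-19699188. *Apoc1* lies 3448 bp beyond its 3′ end at chr7:19689481-19692660, and *Tomm40*, at chr7:19701313-19715438, ends 2124 bp before the 5′ end of *Apoe*. *Clptm1* at chr7:19631571-19665033 and *Bcam* at chr7:19756131-19771016 are farther off, at 31075 bp and 56942 bp. At its 5′ end *Tomm40* overlaps the antisense gene Gm20512 by 423 bp, and *Bcam* overlaps the antisense gene Gm26600 by 406 bp and the same-strand gene Gm45114 by 1349 bp. The libraries were made with a stranded kit, but whether reads were counted by strand is not given in the sources used here, so reads of these overlaps cannot be told apart.

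*Apoe* and its 5′ neighbour *Tomm40* were the members with the largest sex differences on the log2(CPM + 0.5) scale among those tested, a scale that understates the low gene *Apoc1*, and the 250 bases before the outermost RefSeq start of each (GRCm38.p6, minus strand, 5′ to 3′) are shown so that these stretches of DNA can be compared. They span chr7:19699189-19699438 for *Apoe* and chr7:19715430-19715679 for *Tomm40*. Capitals mark every CCAAT or GGGCGG on either strand, the letters of a CCAAT box and of a GC box (TATAAA was searched in the same way).
Apoe: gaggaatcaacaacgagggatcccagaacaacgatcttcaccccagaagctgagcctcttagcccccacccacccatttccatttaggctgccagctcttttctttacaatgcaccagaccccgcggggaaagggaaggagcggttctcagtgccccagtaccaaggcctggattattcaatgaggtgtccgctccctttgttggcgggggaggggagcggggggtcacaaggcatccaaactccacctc
Tomm40: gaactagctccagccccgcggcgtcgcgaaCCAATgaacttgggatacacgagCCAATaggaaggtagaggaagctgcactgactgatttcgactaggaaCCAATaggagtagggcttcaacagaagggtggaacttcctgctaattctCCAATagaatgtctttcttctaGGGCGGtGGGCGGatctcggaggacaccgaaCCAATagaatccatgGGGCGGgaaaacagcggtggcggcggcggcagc
The *Tomm40* stretch held 5 copies of CCAAT and 3 of GGGCGG, and the *Apoe* stretch held no match to any of the 3 motifs. *Clptm1* held 2 copies of GGGCGG and *Bcam* no match. Among 32851 stretches of the same length before RefSeq starts, 33.8% held CCAAT, 32.7% held GGGCGG and 12.4% held TATAAA. These matches describe the letters in the window only.

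Estimated reads per library (M, mega reads), from the step between low values, ranged from 2.05 to 24.4 M in B6 mice and from 17.8 to 31.3 M in *APOE*-TR mice. In *APOE*-TR mice the sexes did not overlap in depth, with 17.8 to 22.3 M reads in females and 22.4 to 31.3 M in males. The E3 female control numbered 61 and another whose column number (6) matches no title stood apart from the other 30 *APOE*-TR libraries. They scored 117 and 89.8 on the first principal component, which held 60.8% of the variance and on which no other library passed 48.1. Mitochondrially encoded transcripts made up 21.8% and 18.3% of their listed values, against 7.03 to 14.9% in the other 30. Values without these 2 libraries are given beside the results that they moved. Of the E3 female controls, only numbers 52 and 63 remain in those fits. The summed level of 7 neuronal markers was 2166 to 6792 CPM over all libraries, and that of 7 astrocyte markers 1585 to 4793 CPM. The 7 choroid plexus markers, of a tissue outside the cortex, summed to 1.83 to 76.7 CPM in B6 libraries and to 10.1 to 1408 CPM in *APOE*-TR libraries, and their part in the results was not tested.

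**Figure D1:**
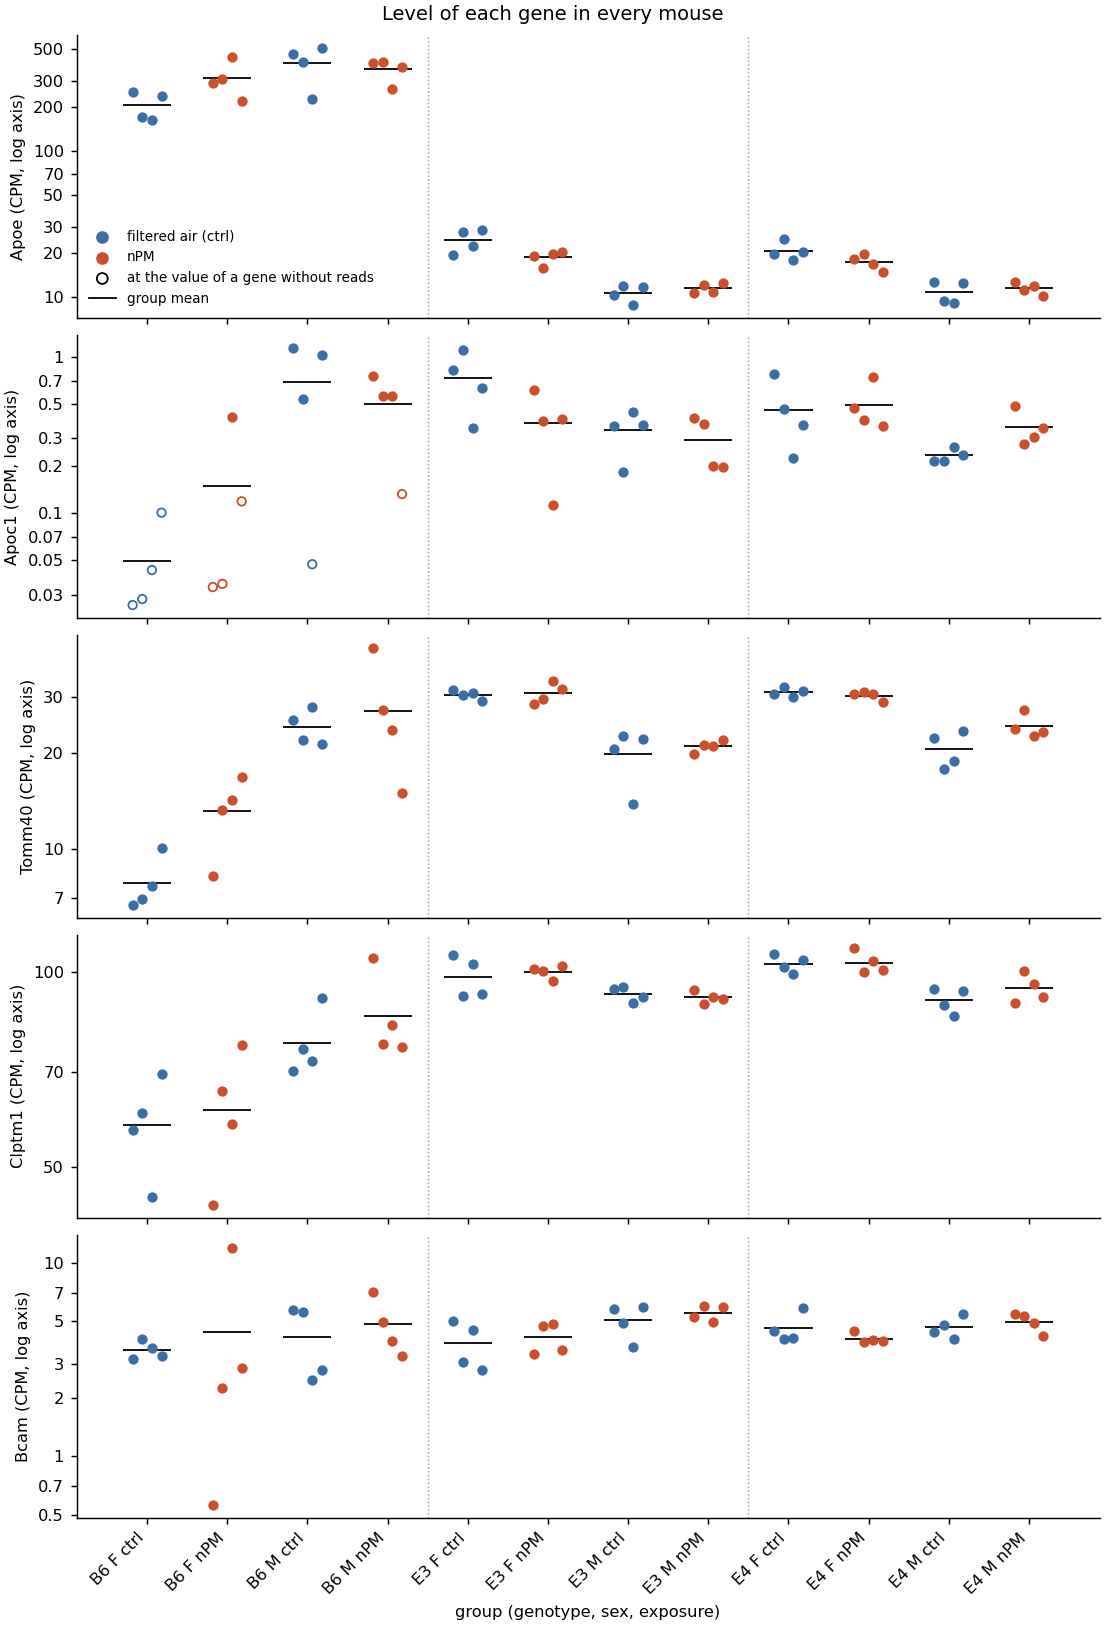
Level of *Apoe*, *Apoc1*, *Tomm40*, *Clptm1* and *Bcam* in every mouse, in CPM after TMM scaling within its table, on log axes; each point is 1 of 48 mice, blue for filtered air and red for nPM, open where the value is that of a gene without reads, and lines are means of 4 mice. *Apoe* lies at 163 to 506 CPM in B6 mice and at 8.78 to 28.9 CPM in *APOE*-TR mice, and the female *APOE*-TR groups lie above the male ones.

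Levels are given as CPM, the reads of a gene relative to all mapped reads of its library, after scaling within each table. In B6 mice on filtered air, *Apoe* was at 252, 171, 163 and 238 CPM in the 4 females and at 463, 409, 228 and 506 CPM in the 4 males. After nPM it was at 291, 311, 440 and 220 CPM in females and at 403, 406, 267 and 373 CPM in males. The B6 groups thus ran, by mean, from control males (401 ± 122, SD, n = 4) through nPM males (362 ± 65.1) and nPM females (316 ± 91.9) down to control females (206 ± 45.5), and each group overlapped its neighbour in that order. Read counts behind these values were 1855 to 12884 per library, so counting error was small beside the spread between mice.

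Where the human allele replaced the mouse gene, 295 to 775 reads per library were still listed under *Apoe*. E3 females had 19.5, 27.9, 22.5 and 28.9 CPM on filtered air (the 27.9 and the 28.9 are the 2 libraries that stood apart) and 19.1, 15.9, 19.8 and 20.4 CPM after nPM. E4 females had 19.6, 24.7, 17.8 and 20.2 CPM on filtered air and 18.3, 19.7, 16.9 and 14.7 CPM after nPM. E3 males had 10.4, 11.9, 8.78 and 11.7 CPM on filtered air and 10.7, 12.1, 10.8 and 12.4 CPM after nPM. The 4 female groups overlapped one another, and none of their 16 mice came down to the level of a male. E4 males had 12.6, 9.41, 9.14 and 12.4 CPM on filtered air and 12.7, 11.2, 11.8 and 10.1 CPM after nPM, overlapping the E3 males. Against the mean of B6 mice of the same sex and air, the *APOE*-TR means of *Apoe* came to 2.66 to 3.16% in males and 5.51 to 11.99% in females. Both numbers of that ratio moved with sex, since *Apoe* was higher in males in the B6 table and higher in females in the *APOE*-TR table. From which transcript the remaining reads came was not tested.

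Per kilobase of annotated exon, *Apoe* was the highest of the 5 genes in B6 mice, at 150 ± 50.5 CPM per kb (SD, n = 16), followed by *Clptm1* at 11.4 ± 2.56, *Tomm40* at 4.00 ± 2.20, *Bcam* at 1.32 ± 0.81 and *Apoc1* at 0.47 ± 0.50. *Clptm1* led in *APOE*-TR mice at 15.6 ± 0.99 CPM per kb (n = 32), above *Apoe* at 7.37 ± 2.57 and *Tomm40* at 5.77 ± 1.15. *Bcam* at 1.44 ± 0.27 and *Apoc1* at 0.55 ± 0.29 were again lowest. *Apoe* and *Clptm1* thus had exchanged places in this order between the tables, and the other 3 genes kept theirs. The *APOE*-TR value of *Apoe* is not a like measure. It divides the reads still assigned to the replaced mouse gene by the full exon length of that gene.

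*Apoc1* was close to the limit of detection throughout. Among B6 mice it was at the value of a gene without reads in 7 of 8 females and 2 of 8 males, and the other mice had 3 to 25 estimated reads, so it was not tested wherever B6 mice entered a fit. A value without reads still allows up to 3 reads in such a library, for counting error alone. In *APOE*-TR mice it had 2 to 24 reads per library and ranged from 0.11 to 1.10 CPM. The study had also designed a quantitative PCR assay for this gene, and its primers are shown to place the amplicon on the transcript: they match the GENCODE transcript Apoc1-201 (432 bases) at bases 300 to 319 and 392 to 411, an amplicon of 112 bases. The reverse primer is complementary to the transcript.
Forward: gcaaagtgaaggagaagttg
Reverse: attggtctgtgatgaagagg

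The sexes differed at this locus in both tables, in opposite directions. In B6 mice *Apoe*, *Tomm40* and *Clptm1* were lower in females, and in *APOE*-TR mice the rows of the same 3 genes were higher in females. The *APOE*-TR row of *Apoe* holds only reads still assigned to the replaced mouse gene, so it is not a like measure. Of the 4 members tested in B6 mice, *Tomm40* fell furthest in females. Its lowest, median and highest levels were 6.65, 9.11 and 16.7 CPM in 8 females and 14.9, 24.5 and 42.7 CPM in 8 males. All but 1 of the females were below every male. Its difference, females minus males, was -1.27 ± 0.21 (SE) on the scale of log2(CPM + 0.5), with an adjusted p of 0.000288 by limma. *Apoe* had 163, 245 and 440 CPM in B6 females and 228, 405 and 506 CPM in B6 males, with overlap, and a difference of -0.57 ± 0.19 (adjusted p = 0.0277). *Clptm1* had 43.6, 59.4 and 77.1 CPM against 70.4, 77.1 and 105 CPM, with 7 of 8 females below every male, and a difference of -0.46 ± 0.13 (adjusted p = 0.0148). *Bcam* did not pass, at -0.37 ± 0.35 (95% confidence interval -1.11 to 0.36). *Apoc1*, not tested in B6 mice, had a median of 0.039 CPM in females and 0.559 CPM in males, with overlap. It was at the value of a gene without reads in 7 of 8 females and 2 of 8 males. Called genes made up 26.1% of the 13881 tested in B6 mice, against 3 of the 4 members tested.

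In *APOE*-TR mice *Apoe* had a lowest, median and highest level of 14.7, 19.7 and 28.9 CPM in 16 females and 8.78, 11.5 and 12.7 CPM in 16 males. Every female was above every male, and the difference was 0.83 ± 0.07 (SE, log2; adjusted p = 1.38e-10 by limma). *Tomm40* had 28.5, 30.6 and 33.6 CPM in females and 13.9, 22.04 and 27.2 CPM in males. It too left no overlap, with a difference of 0.52 ± 0.05 (adjusted p = 3.15e-09). *Clptm1* was higher in females by 0.13 ± 0.03 (adjusted p = 9.24e-05), with 11 of 16 females above every male. *Apoc1* was higher by 0.30 ± 0.10 (adjusted p = 0.0082) and overlapped between the sexes. *Bcam* alone was lower in females in this table, by -0.26 ± 0.08 (adjusted p = 0.00534), at 2.79, 4.06 and 5.84 CPM against 3.68, 5.09 and 5.95 CPM. All 5 members were called, where 60.4% of the 15970 genes tested were called, so a call by itself sets them little apart from other genes.

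**Figure D2:**
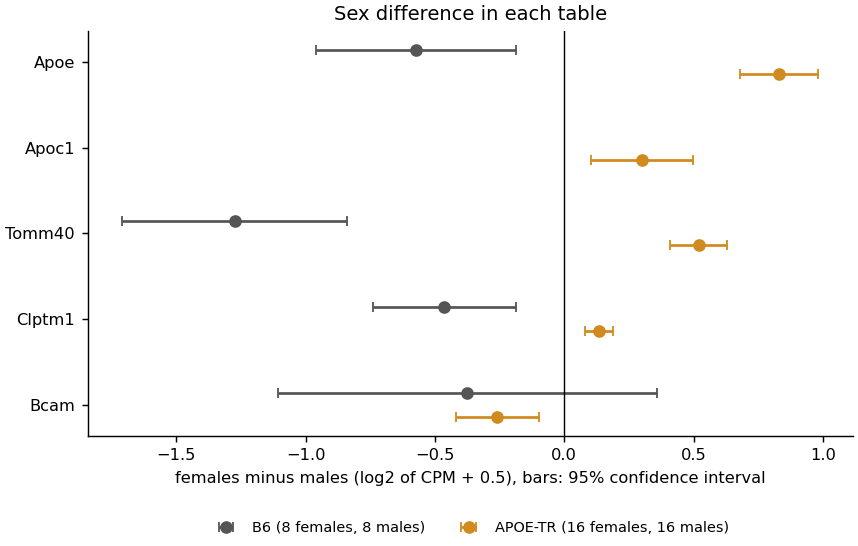
Difference between females and males of each gene, females minus males in log2(CPM + 0.5), with 95% confidence intervals from limma, for the 16 B6 mice (grey) and the 32 *APOE*-TR mice (orange). *Apoe*, *Tomm40* and *Clptm1* lie left of 0 in B6 mice and right of 0 in *APOE*-TR mice, *Bcam* lies left of 0 in both with a B6 interval that includes 0, and *Apoc1* was not tested in B6 mice.

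The difference between the tables, a contrast chosen after the data were seen, was itself tested in a fit with a mean for each of the 12 groups. The sex difference of *Tomm40* was 1.79 ± 0.16 higher (SE, log2) in *APOE*-TR than in B6 mice (adjusted p = 1.22e-11), that of *Apoe* 1.40 ± 0.17 (adjusted p = 4.73e-09) and that of *Clptm1* 0.60 ± 0.10 (adjusted p = 6.36e-06). *Bcam*, at 0.12 ± 0.30, did not pass. Here 51.7% of 11080 genes were called. In a single fit to all 48 mice with 1 sex term, only *Apoe* of 4 tested members was called, at 0.36 ± 0.13 (adjusted p = 0.0232), against 36.8% of genes; that value is a mean of opposite differences, weighted to the table with more mice.

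Measures of the libraries moved with sex in each table, also in opposite directions. The slope of a library's levels on exon length, which is positive where long transcripts are listed at relatively more, was 0.0022 to 0.0599 in B6 females and -0.169 to 0.0532 in B6 males. In *APOE*-TR mice it was -0.442 to 0.019 in females and 0.0516 to 0.135 in males, with no overlap. *Apoe*, at 2138 exonic bases, is shorter than the median gene tested, at 4308 bases in the *APOE*-TR table and 4086 in the B6 table. *Tomm40* is near that median at 4513 bases and *Clptm1* is above it at 6210 bases.

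**Figure D3:**
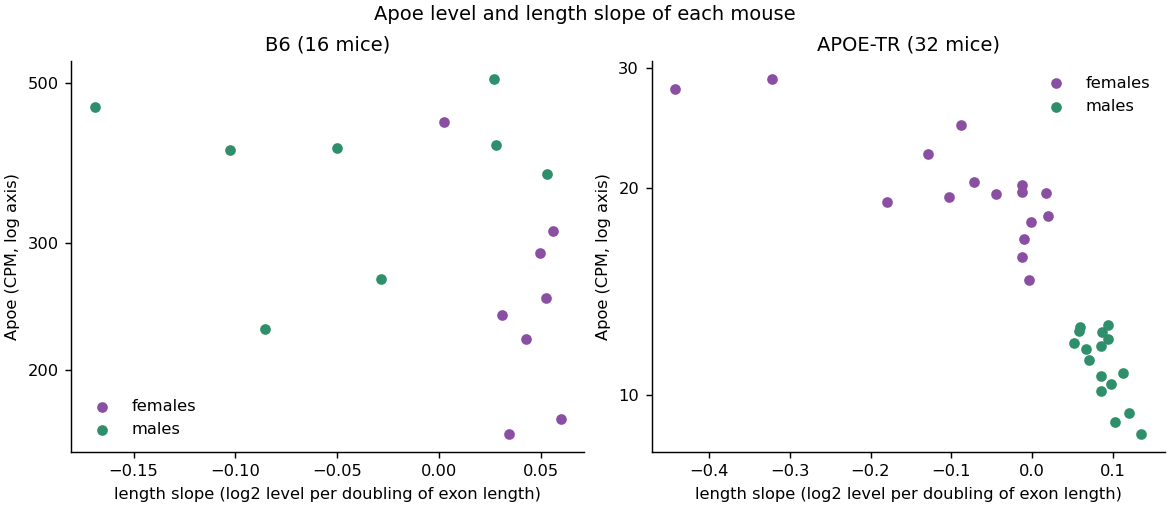
Level of *Apoe* (CPM, log axis) against the length slope of the same library, the change in log2 level per doubling of exon length relative to the mean of its table, for 16 B6 and 32 *APOE*-TR mice; purple points are females and green points males. In *APOE*-TR mice the males lie at slopes of 0.0516 or more and the females at 0.019 or less, and the 2 females at the far left, at 27.9 and 28.9 CPM, are the libraries that stood apart.

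With this slope as a covariate, chosen after the data were seen, the differences in *APOE*-TR mice were 0.53 for *Apoe* (adjusted p = 4.36e-06), 0.43 for *Tomm40* (adjusted p = 2.92e-05) and 0.18 for *Clptm1* (adjusted p = 6.52e-05), among 38.2% of genes called. *Apoc1* (0.00081) and *Bcam* (-0.02) were no longer called. The sexes did not overlap in slope in *APOE*-TR mice, so there the fit cannot separate sex from the slope. In B6 mice *Tomm40* stayed called at -0.91 (adjusted p = 0.0195), whereas *Apoe* at -0.54 (adjusted p = 0.162) and *Clptm1* at -0.47 (adjusted p = 0.0746) did not, among 9.06% of genes called. The difference between the tables was called for *Apoe* (1.11), *Tomm40* (1.41) and *Clptm1* (0.66) with the covariate as well. Without the 2 E3 female controls that stood apart, the *APOE*-TR difference of *Apoe* was 0.76 (adjusted p = 3.22e-11) and that of *Tomm40* 0.51 (adjusted p = 5.13e-09). Without the 5 B6 mice with the fewest reads, *Tomm40* in B6 mice was at -1.60 (adjusted p = 0.00113) and *Apoe* at -0.46, which was not called (adjusted p = 0.193). Leaving out 1 B6 mouse at a time, *Apoe* lay between -0.68 and -0.49 and lost its call without any one of 5 mice, females 41, 42 and 53 and males 0 and 6.

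Cell type markers also differed by sex. In *APOE*-TR females all 7 endothelial markers and 6 of 7 mural markers were lower (100% and 85.7%, beside 60.4% of all genes called). Endothelial sums were 40.7 to 79.2 CPM against 91.2 to 149 CPM in males. Astrocyte and microglial markers, those of the cells that make most *Apoe*, were each higher in females for 4 of 7 with none lower (57.1%, beside 60.4% of all genes called), with astrocyte sums of 3498 to 4793 CPM against 3456 to 4147 CPM. Of the oligodendrocyte markers 5 of 7 were higher (71.4%, with sums of 3479 to 6199 CPM against 2728 to 3568 CPM). The counts for these 5 cell types were the same without the 2 E3 controls that stood apart. Of 7 neuronal markers 3 were higher and 3 lower in *APOE*-TR females, or 3 and 2 without those controls. In B6 females 2 astrocyte markers were higher and 1 lower (42.9%), and 1 microglial marker was higher and 3 lower (57.1%), beside 26.1% of all genes called. Of the endothelial and mural markers, 0 of 7 and 0 of 5 tested were called in B6 mice. Astrocyte sums were 2643 to 3716 CPM in B6 females against 1585 to 3333 CPM in B6 males. Neuronal sums were 4433 to 6662 CPM in B6 females and 2166 to 4825 CPM in B6 males. Of 7 neuronal markers 3 were higher in B6 females and 2 lower (71.4%). *Slc1a2* made up much of the astrocyte sum: without it the other 6 astrocyte markers summed, by mean, to 1171 CPM in B6 females and 1265 CPM in B6 males, with overlap. Bulk cortex cannot tell apart fewer cells of a type and less RNA per cell, and the part of cell composition in the sex difference was not tested.

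The main question of the study was the response to nPM. With all mice kept, none of the 5 genes was called for nPM, at an unadjusted p under 0.005, in any genotype and sex or over all 48 mice. By limma, 5 of the values in the 6 strata had an unadjusted p under 0.05, those of *Apoe* in B6 and E3 females, *Tomm40* in B6 females and E4 males, and *Apoc1* in E4 males. The values of *Apoe* were largest in females and had opposite signs in the tables. In B6 females *Apoe* was 0.60 ± 0.21 (SE, log2) higher after nPM (95% confidence interval 0.15 to 1.04; unadjusted p = 0.0124, adjusted p = 0.391 by limma). The groups overlapped and the exact permutation test, two-sided over 70 labelings with 0.0286 the smallest p it can give, gave p = 0.0857. Leaving out 1 mouse at a time, the difference lay between 0.42 and 0.76. It passed the threshold without nPM female 53 (0.76, unadjusted p = 0.0030 by limma). It also passed without the B6 mice of few reads (0.83, unadjusted p = 0.0034 by limma). In E3 females *Apoe* differed by -0.37 ± 0.15 (interval -0.72 to -0.02; exact permutation p = 0.0857), and by -0.16 (p = 0.295 by limma) without the 2 controls that stood apart. In E4 females it differed by -0.24 ± 0.11 (interval -0.48 to 0.01; exact permutation p = 0.143). In males the differences were -0.10 ± 0.25 in B6, 0.10 ± 0.10 in E3 and 0.08 ± 0.11 in E4 mice, each within its spread.

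Called genes made up 1.21% of those tested in B6 females, 0.234% in B6 males, 0.665% in E3 females, 0.154% in E3 males, 0.272% in E4 females and 0.178% in E4 males. At such shares none of 4 or 5 genes would be called as a rule, so the count of 0 says little about these members and the intervals say more. Over 48 mice, 1.48% of genes were called and *Apoe* differed by 0.01 ± 0.13, with an interval of -0.25 to 0.27. The same term was 0.25 ± 0.19 in the 16 B6 mice alone, where 0.533% of genes were called, and -0.11 ± 0.07 in the 32 *APOE*-TR mice alone, where 0.695% were.

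**Figure D4:**
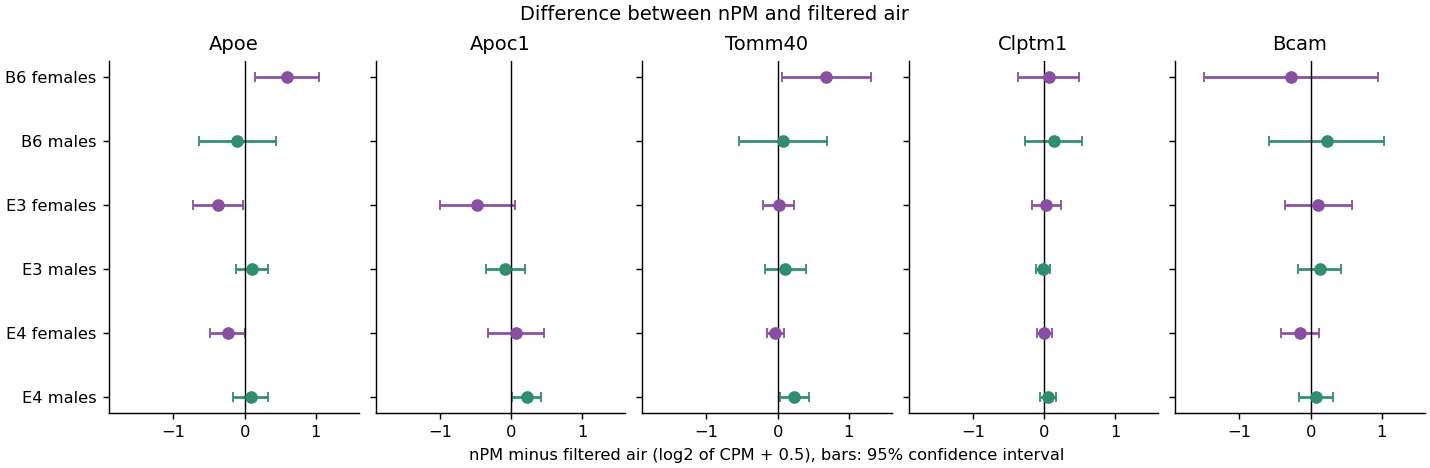
Difference between nPM and filtered air for each gene in the 6 strata of genotype and sex (4 against 4 mice), in log2(CPM + 0.5) with 95% confidence intervals from limma; purple is females and green is males. Intervals of *Apoe* in B6 females and E3 females and of *Tomm40* in B6 females and E4 males, and that of *Apoc1* in E4 males, leave out 0 on their own, none of these had a p under 0.005, and *Apoc1* was not tested in B6 mice.

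*Tomm40* stood at 6.65, 6.93, 7.62 and 10.02 CPM in control B6 females and at 8.21, 13.2, 14.2 and 16.7 CPM in nPM B6 females. All but 1 of the nPM females were above every control, and the difference was 0.68 ± 0.29 (interval 0.06 to 1.30; exact permutation p = 0.0571). In E4 males it was at 22.3, 17.8, 18.8 and 23.4 CPM on filtered air and 23.7, 27.2, 22.6 and 23.3 CPM after nPM, a difference of 0.23 ± 0.09 (interval 0.03 to 0.44; exact permutation p = 0.0857). In the other strata it differed by -0.04 to 0.11. *Clptm1* varied least, with differences of -0.02 to 0.13 and, in the *APOE*-TR strata, intervals no wider than -0.18 to 0.23. *Bcam* ranged in B6 females after nPM from 0.56 to 11.9 CPM, as 0.56, 2.25, 2.85 and 11.9 CPM, against 3.20 to 4.02 CPM in the controls, so its difference of -0.28 ± 0.57 was poorly determined.

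*Apoc1* in E4 males was at 7, 6, 11 and 9 reads on filtered air and at 19, 9, 12 and 11 reads after nPM. Its levels of 0.22 to 0.27 CPM and 0.28 to 0.49 CPM did not overlap (difference 0.22 ± 0.09, exact permutation p = 0.0286, the smallest possible), but its limma p of 0.0382 missed the threshold. In E3 females it differed by -0.48 ± 0.23, and by -0.30 without the 2 controls that stood apart. Differences in these few reads are at the edge of what the depth can show.

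Whether nPM acted differently by sex or by allele was tested as an interaction. No gene passed a 5% false discovery rate by limma in either test (0% of 11080 genes by sex and 0% of 15970 by allele), while 1501 and 1688 genes had an unadjusted p under 0.05. *Apoe* differed by -0.03 ± 0.16 between the responses of females and males and by 0.06 ± 0.13 between those of E4 and E3 mice. The value by sex is a mean over B6 and *APOE*-TR mice, whose female responses had opposite signs. *Apoc1* had the largest value by allele, 0.42 ± 0.18 (adjusted p = 0.443). Responses of females were also compared between the tables, a contrast chosen after the data were seen. Here too the *APOE*-TR row of *Apoe* holds only reads still assigned to the replaced mouse gene. The response of *Apoe* was 0.90 ± 0.23 lower on the log2 scale in *APOE*-TR females than in B6 females (contrast -0.90, adjusted p = 0.0224, with 3.75% of genes called), and that of *Tomm40* was -0.69 ± 0.23 (adjusted p = 0.0699). Without the 2 E3 controls that stood apart the contrast of *Apoe* was -0.79 (adjusted p = 0.0555), and with the length slope as a covariate -0.72 (adjusted p = 0.0624), so that neither passed 5%. It also missed 5% without B6 female control 41 (-0.82) or 42 (-0.80) or nPM female 52 (-0.73), with adjusted p between 0.0595 and 0.0640.

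E4 and E3 mice were compared to see whether the allele at this locus went with the level of its neighbours. No member was called at a 5% false discovery rate by limma in any of the 5 planned comparisons. *Tomm40* in nPM males was the 1 value with an unadjusted p under 0.05: E3 males had 19.9, 21.2, 21.1 and 22.002 CPM and E4 males 23.7, 27.2, 22.6 and 23.3 CPM. These did not overlap, with a difference of 0.20 ± 0.06 (interval 0.06 to 0.34; exact permutation p = 0.0286, the smallest possible; adjusted p = 0.353). On filtered air the same difference was 0.07 ± 0.15 in males. *Apoe* reads differed by -0.25 ± 0.16 between E4 and E3 females on filtered air, and by -0.03 without the 2 E3 controls that stood apart. In the other 3 strata *Apoe* differed by -0.11 ± 0.11, 0.02 ± 0.13 and 0.00 ± 0.08. Called genes made up 0.231% in females and 0.433% in males on filtered air, 0.145% in females and 0.475% in males after nPM, and 0.379% over 48 mice.

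**Figure D5:**
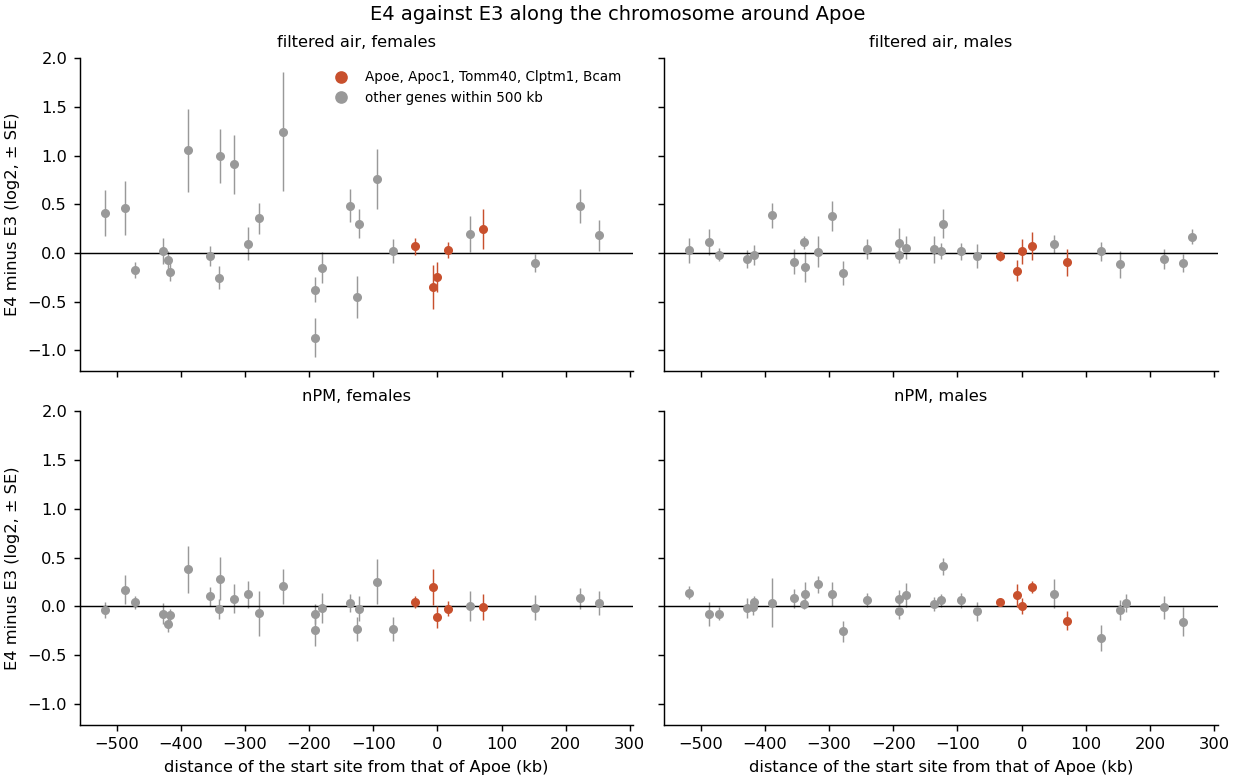
E4 minus E3 difference (log2(CPM + 0.5), ± SE) of the genes with any part within 500 kb of *Apoe*, against the distance of each start site from that of *Apoe* in kb, in the 4 strata of air and sex (4 against 4 mice); red points are *Apoe*, *Apoc1*, *Tomm40*, *Clptm1* and *Bcam*, grey points are other genes. Differences reach -0.87 to 1.24 in females on filtered air, where the 2 E3 controls that stood apart are compared, and stay within -0.33 to 0.41 in the other 3 strata.

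The *APOE*-TR table lists 37 genes with any part within 500 kb of *Apoe*, the 5 members among them. Of 31 to 33 tested in each stratum, 0 passed a 5% false discovery rate between E4 and E3 mice, and their median differences were -0.01 to 0.07, beside medians over all genes of -0.01 to 0.00. With the 32 *APOE*-TR mice in 1 fit, where 5.94% of all genes were called, 1 of 30 was: *Zfp296*, a zinc finger gene whose start site lies 122 kb toward *Clptm1*, was higher in E4 mice by 0.25 ± 0.07 (adjusted p = 0.0298). *Zfp296* was higher in E4 mice by 0.41 in nPM males and by 0.30 in both sexes on filtered air, and differed by -0.02 in nPM females. Without the 2 E3 controls that stood apart it was higher by 0.49 in females on filtered air and by 0.27 over the remaining 30 mice (adjusted p = 0.0187). By sex, 7 of 19 tested genes of the interval were lower in B6 females and 0 higher, and in *APOE*-TR females 14 of 30 were higher and 4 lower (15 and 3 without the 2 E3 controls that stood apart). These are 36.8% and 60.0% of the genes of the interval, beside 26.1% and 60.4% of all genes. The members given above are counted again here. They make up 3 of the 7 in B6 mice (4 of the 19 tested). In *APOE*-TR mice they make up 4 of the 14 and 1 of the 4 (5 of the 30 tested). The sex difference was called as higher in *APOE*-TR than in B6 mice for 11 of 19 and as lower for 0 (57.9%, beside 51.7% of all genes), with a median of 0.54 beside -0.08 over all genes. Members make up 3 of these 11 and 4 of the 19, so the interval is not separate from them. The share called in either direction was thus near that over all genes in this contrast, but the calls of the interval all went 1 way. Among all genes, 2512 were called as higher and 3212 as lower in it. In B6 females 1820 of all genes were called as higher and 1808 as lower, while the 7 of the interval were all lower. In *APOE*-TR females 4752 of all genes were higher and 4889 lower, beside 14 and 4 of the interval. Whether the direction in the interval differed from that of other genes was not tested.

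Genes of lipoprotein handling were followed through a list of 19 receptors, transporters and regulators. For nPM, 2 of the 19 passed in B6 females, both upward (10.5%, beside 1.21% of all genes). In each of the other 5 strata 0 passed, where 0.154 to 0.665% of all genes were called, so these counts of 0 say little. These were *Nr1h3*, the liver X receptor alpha (1.26 ± 0.37, unadjusted p = 0.00426), and its partner *Rxrb* (0.98 ± 0.29, unadjusted p = 0.0043), nuclear receptors that as a pair drive cholesterol efflux genes and *Apoe*. Neither passed a 5% false discovery rate (both with an adjusted p of 0.388), and the efflux transporters *Abca1* (-0.32) and *Abcg1* (-0.19) were not called. The median of the list in B6 females was 0.12, beside -0.03 over all genes.

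Over the 32 *APOE*-TR mice 1 of the 19 was called for nPM (5.26%, beside 0.695% of all genes). This was *Lcat*, the enzyme that esterifies cholesterol on lipoproteins, lower by -0.17 ± 0.05 (unadjusted p = 0.00353 by limma). Without the 2 E3 controls that stood apart *Lcat* was lower by -0.13 (unadjusted p = 0.0147 by limma, not called). Without them 1 of the 19, the lipoprotein lipase gene *Lpl* (-0.78), was called as lower in E3 females (5.26%, beside 0.522% of all genes). That call compares the nPM females with controls 52 and 63 alone. Between E4 and E3 mice 0 of the 19 were called in the 5 planned comparisons, where 0.145 to 0.475% of all genes were called. In the fit of 32 *APOE*-TR mice 2 were higher in E4 (10.5%, beside 5.94% of all genes). These were *Vldlr*, the very low density lipoprotein receptor (0.16 ± 0.04, adjusted p = 0.0054 by limma), and the sterol transporter *Abcg1* (0.25 ± 0.06, adjusted p = 0.0186). *Abcg1* differed by 0.63 in females on filtered air and by 0.10 to 0.15 in the other 3 strata. Without the 2 E3 controls that stood apart, the values over the remaining 30 mice were 0.17 for *Abcg1* (adjusted p = 0.00536) and 0.13 for *Vldlr* (adjusted p = 0.00319). In females on filtered air 2 of the 19 were then called (10.5%, beside 2.04% of all genes), *Abcg1* (0.37) and the receptor *Lrp1* (0.74). By sex, 8 of the 19 were lower and 5 higher in *APOE*-TR females, led by the phospholipid transfer protein *Pltp* (-1.27 ± 0.12) and the sorting receptor *Sorl1* (-1.22 ± 0.14). In B6 females 3 were higher and 3 lower. These are 68.4% and 31.6% of the list, beside 60.4% and 26.1% of all genes, and the *APOE*-TR counts were the same without the 2 E3 controls that stood apart. In B6 mice *Sorl1* had a difference of 0.91 ± 0.23, in the direction opposite to that of *APOE*-TR mice. The length slope also moved with sex in opposite directions in the tables, and its part in the values of this list was not tested.

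The genes whose levels ran most like *Apoe* over the mice of a table were named as a description. Over 16 B6 mice they were *Mdk*, the growth factor midkine (Pearson r = 0.91), the vesicular inhibitory amino acid transporter *Slc32a1* (0.88) and *Cbarp* (0.87), among 13880 genes. Over 32 *APOE*-TR mice they were *Stk19* (0.97), the ribosomal protein gene *Rpl29* (0.96) and *Pigyl* (0.96), among 15969 genes. No gene was among the 3 in both tables. *Apoe* itself ran with *Tomm40* at 0.60 in B6 and 0.87 in *APOE*-TR mice, with *Clptm1* at 0.49 and 0.60, and with *Bcam* at 0.36 and -0.51. Without the 2 E3 controls that stood apart *Apoe* ran with *Tomm40* at 0.91, *Clptm1* at 0.83 and *Bcam* at -0.31. For *APOE*-TR mice these values take in the separation of the sexes, which differ in depth and length slope. For *Apoc1* over 32 *APOE*-TR mice the 3 genes were *Lhfpl3* (0.82), *Nts* (0.81) and *Arl4a* (0.81), from 2 to 24 reads of *Apoc1* per library.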

How the data were processed

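The deposited values are CPM, which the authors made with TopHat2 (2.0.8b) and Partek from uniquely mapped reads with up to 3 mismatches on the mouse genome (mm10), in 1 table for B6 and 1 for *APOE*-TR mice. RNA had been extracted from cortex and sequenced from stranded mRNA libraries, 1 library per mouse. Reads on the human allele were not counted apart. Values were scaled by TMM within a table, and log2(CPM + 0.5) was fitted with limma 3.58.1 in R 4.3.3 over genes that had reads in all mice of the fit. Fold changes of low genes are understated on this scale. nPM was called at an unadjusted p under 0.005 and all else at a 5% false discovery rate (Benjamini-Hochberg). Comparisons within 1 genotype and sex, or air and sex, used only their 8 mice. Fits over 48 mice had terms for genotype, sex and nPM. Exact permutation tests over 70 labelings were two-sided.

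For *APOE*-TR mice, whole multiples of a step made up 95.7 to 96.4% of low values in a library, so reads were recovered there and also tested with edgeR 4.0.16 and DESeq2 1.42.0. B6 reads (85.6 to 98.2%) are estimates of depth only. Intervals and floors on reads cover counting error only. Length slopes are regressions of centred log2 levels on log2 exon length. Other alternatives were other size factors, filters and pseudocounts, voom, ComBat (sva 3.50.0) and leaving out mice. Leaving out the 2 E3 controls that stood apart or the B6 mice of few reads, the length covariate, contrasts between the tables and the astrocyte sum without *Slc1a2* were chosen after the data were seen. The fits were tested on simulated data. The members are named throughout, with locus genes called between E4 and E3 mice, at most 6 pathway genes by p, and the 3 genes most like *Apoe* and *Apoc1*. Members, lists and tests were chosen with earlier results of these data known. The E3 female control column numbered 6 matches no title and was used by group only.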

Additional observations from a re-analysis of the deposited data

Results flagged for a closer look

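The sex difference (females minus males, log2) differed between the tables for 3 of the 4 members tested. It was higher in *APOE*-TR than in B6 mice by 1.40 for *Apoe*, by 1.79 for *Tomm40* and by 0.60 for *Clptm1*. The response of *Apoe* to nPM in females was also called as different between the tables, with a contrast of -0.90. That call was lost without the 2 E3 controls that stood apart and with the length slope as a covariate. It was also lost without any one of B6 females 41, 42 and 52. Genotype, age, length of exposure, nPM batch and library measures change together between the tables and cannot be told apart. What the *Apoe* row counts also differs, since the mouse gene is replaced in *APOE*-TR mice.

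The level of *Bcam* in 1 E4 female after nPM, 4.43 CPM, lay apart from the other 3 mice of its group, the next of which was at 3.97 CPM. It was the only one of 60 levels of a gene in a group to be picked out by Dixon's test, which chance does in about 1 in 20.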

How the results depend on the processing

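Of 459 counts of members called under another setting, 450 were unchanged. For nPM in B6 females the count of 0 became 1, *Apoe*, without the 5 B6 mice with the fewest reads (0.83). It was 0 to 1 leaving out 1 mouse at a time, and 1, again *Apoe* (0.76), without nPM female 53. For females against males over 48 mice the count of 1 became 0 with voom, without the 2 E3 female controls and with the length covariate, 2 with voom, ComBat and no weights, 3 in the 16 B6 mice alone and 5 in the 32 *APOE*-TR mice alone, and was 1 to 2 leaving out 1 mouse (2 without B6 nPM female 52). Against that fit *Apoe* reversed in B6 mice (-0.57), and *Tomm40* (0.52) and *Clptm1* (0.13) in *APOE*-TR mice. The cause was not tested. Of 2184 values that stayed uncalled, 105 changed sign. The *Tomm40* contrast of the nPM response of females between the tables was called without the B6 mice of few reads (-0.69, adjusted p = 0.0254), and without any one of B6 female control 43 (-0.81), nPM female 50 (-0.89) and nPM males 10 and 16 (both -0.69).

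Counts over all genes moved by over 1.5 times as follows. For nPM, 164 genes over 48 mice became 74 in B6 mice alone, 107 with ComBat and 37 without the 2 E3 controls; 36 in B6 males became 57 without a filter, 73 with shared variance and 14 without the mice of few reads; 109 in E3 females became 467 with DESeq2 and 5052 with shared variance; 26 in E3 males became 14 with a minimum of 10 reads or shared variance; 45 in E4 females became 85 with DESeq2; and 30 in E4 males became 46 without a filter, 52 with DESeq2 and 5 with shared variance. Between E4 and E3, 42 over 48 mice became 71 without a filter, 27 with the minimum, 948 in *APOE*-TR mice alone and 204 with ComBat. In filtered-air females 38 became 22 with the minimum, 3986 with DESeq2, 8867 with shared variance and 341 without the 2 E3 controls, and in males 73 became 140 with DESeq2 and 43 with shared variance. In nPM females 24 became 14, 111 and 41 with the minimum, DESeq2 and shared variance, and in nPM males 80 became 206 and 42 with the last 2. By sex, 4076 became 9641 in *APOE*-TR mice alone and 750 with the length covariate. The interactions of nPM gave 0 genes, 23 by sex without the B6 mice of few reads and 1 by allele with DESeq2. Leaving out 1 mouse at a time gave, for nPM, 75 to 245 over 48 mice, 70 to 313 in B6 females (179 with all mice), 12 to 277 in B6 males, 29 to 293 in E3 females, 13 to 75 in E3 males, 16 to 89 in E4 females and 15 to 87 in E4 males. It gave 15 to 6416 between E4 and E3 in filtered-air females, 41 to 59 in filtered-air males, 0 to 44 for nPM by sex and 0 to 1 for nPM by allele.

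No paired analysis was made, because the groups compared hold separate mice. Tests on recovered reads were not run where B6 mice entered. *Apoc1* is limited by depth, with at most 25 reads in a library.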
